A study of Mus musculus with 8 samples.

Results

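miR-22 is a single hairpin from which both arms, miR-22-5p and miR-22-3p, can be cut as mature miRNAs. The 2 arms, mmu-miR-22-5p and mmu-miR-22-3p, were taken by name from the 1966 mature miRNA names of the deposited count table, and both were among the 564 miRNAs abundant enough to be tested. In primary murine articular chondrocytes, miR-22-3p was the 15th most abundant of the tested miRNAs, whereas miR-22-5p gave 2 to 7 counts per library. Neither arm passed the test for a change with IL-1β, and the ratio between the arms differed between treatments by less than its spread between libraries.

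The cells were articular chondrocytes digested from the femoral head cartilage of young wild-type mice and grown in high-glucose medium with serum. They received vehicle (4 libraries) or 1 ng/mL of the inflammatory cytokine IL-1β, an activator of NF-κB (4 libraries), and RNA was collected after 24 h. No source stated whether the 4 libraries of a group came from separate animals or cultures, so that p-values measure the spread between these libraries, which may be partly technical. The question put to each arm was whether its abundance changed when IL-1β was added.

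A miRNA hairpin is cut by Drosha and Dicer to a short duplex, of which one strand, the guide, is usually loaded into Argonaute and the other, the passenger, is degraded. The loaded strand finds mRNAs through its seed, bases 2 to 8, and lowers their translation and stability. miR-22 is conserved among vertebrates and is known from heart and skeletal muscle, red blood cell development and adipose tissue. In osteoarthritis, miR-22 has been described as raised in human cartilage, with the metabolic receptor PPARA and the cartilage growth factor BMP7 as proposed targets.

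The hairpin is shown first because the arms are counted from its opposite sides. In the GRCm38.p6 sequence of RefSeq, Mir22 lies on chromosome 11, chr11:75463716-75463810, plus strand, which is the same assembly as the mm10 build named for the deposited data. In the 95 bases below, capitals mark miR-22-5p (bases 19 to 40) and miR-22-3p (bases 57 to 78), 16 bases apart.
Mir22: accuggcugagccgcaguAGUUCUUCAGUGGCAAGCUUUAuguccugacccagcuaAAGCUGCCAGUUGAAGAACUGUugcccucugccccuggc

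The whole hairpin lies in exon 2 of the long non-coding host gene Mir22hg (75461539 to 75466676, plus strand, GENCODE M21), so it is exonic and not intronic. The same exon is also annotated in a processed transcript of the protein-coding gene Tlcd2 (75461715 to 75470899), upstream of the annotated coding sequence of that gene (75468205 to 75470560). The predicted fold of the hairpin (RNAfold, minimum free energy -41.9 kcal/mol) paired 19 bases of one arm with the other, with 1 base of each arm unpaired.

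The mature arms are given next, since the seed sets which mRNAs an arm can recognise, with the seed in capitals.
miR-22-5p: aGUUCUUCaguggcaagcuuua
miR-22-3p: aAGCUGCCaguugaagaacugu

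Both arms are 22 nt long, at 75463734 to 75463755 (5p) and 75463772 to 75463793 (3p), and their seeds, GUUCUUC and AGCUGCC, differ. Among 1678 other mature mouse sequences in RefSeq, 0 had the seed of either arm at their own bases 2 to 8. Each arm had 1 entry and was found in 1 of 1005 hairpin sequences, so that no second copy of the gene was found there to share its counts.

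One other miRNA comes close to miR-22-3p, and it is shown because counts of near-identical names are the least certain. miR-3966 (chromosome 10, 97423493 to 97423513, plus strand) begins 1 base later and then differs at 2 bases, U11C and A14U, counted from the 5′ end of miR-22-3p. Capitals mark these bases.
miR-22-3p: aagcugccagUugAagaacugu
miR-3966: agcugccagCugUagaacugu

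miR-3966 had 104 counts over the 8 libraries, from 8 to 22 per library, which equals 0.0913% of the 113966 counts of miR-22-3p. Its counts were 0.0461% to 0.127% of those of miR-22-3p in the same library. miR-3966 did not pass the test for a change with IL-1β either (log2 fold change -0.15, SE 0.313, adjusted p = 0.904 by edgeR). The nearest sequences to miR-22-5p were 8 edits away. Whether reads were exchanged between miR-3966 and miR-22-3p was not tested.

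Library totals ranged from 616475 to 1568367 counts, with 930139, 1514240, 1568367 and 633625 in vehicle replicates 1 to 4 and 616475, 1145577, 694999 and 856154 in IL-1β replicates 1 to 4. Abundance is given in CPM, the counts of a miRNA per 1000000 counts of its library, and on this scale a single read amounted to 0.638 to 1.62. The chondrocyte miRNAs miR-140 and miR-455, with 4 arms, took 15.6% to 16.8% of counts with vehicle and 12.4% to 15.3% with IL-1β. Markers of red blood cells (3 miRNAs), muscle (4 miRNAs) and liver (1 miRNA) had 0 counts, which allows up to 1.91 to 4.87 CPM per library. Of the 4 haematopoietic markers 2 had counts, and together they took 0.00441% to 0.00638% with vehicle and 0.00260% to 0.00471% with IL-1β. Epithelial (4 of 6), endothelial (1 of 2) and neuronal (1 of 2) markers had 20, 8 and 3 counts in all. IL-1β replicate 4 stood apart from its group: its deviations from the other 3 libraries had an SD of 0.40 on the log2 scale over the 195 miRNAs averaging 50 counts or more, whereas the other 7 libraries had SDs of 0.15 to 0.23.

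miR-22-3p, the major arm, was among the most abundant miRNAs of these cells. Its counts were 12137, 21603, 22851 and 8614 in vehicle replicates 1 to 4. Scaled by library (normalized CPM, that is CPM with the library total corrected by TMM, the trimmed mean of M values), its abundance there was 12869, 14417, 14276 and 13418. The lowest of these was vehicle replicate 1 and the highest vehicle replicate 2.

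In IL-1β replicates 1 to 4, miR-22-3p had 8650, 17340, 10119 and 12652 counts, or 13837, 14614, 14787 and 15857 normalized CPM. The groups overlapped, since IL-1β replicate 1 lay below vehicle replicates 2 and 3, and the highest value was that of IL-1β replicate 4. miR-22-3p deviated there from the mean of the other 3 IL-1β libraries by 0.14 on the log2 scale, and before the TMM correction the highest value was that of IL-1β replicate 2, at 15137 CPM. As a share of all counts, miR-22-3p made up 1.39% ± 0.0683 of the vehicle libraries and 1.46% ± 0.0462 of the IL-1β libraries (SD, n = 4).

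The mean of miR-22-3p was 13745 ± 732 normalized CPM for vehicle and 14774 ± 832 for IL-1β (SD, n = 4), a ratio of 1.07. In the quasi-likelihood test of edgeR the log2 fold change was 0.10 (SE 0.0799, 95% interval -0.06 to 0.27, unadjusted p = 0.205, adjusted p = 0.744 over 564 miRNAs). A miRNA was called when the adjusted p was under 0.05 and the absolute log2 fold change over 0.3, and miR-22-3p was not called. The upper end of its interval lay below 0.3. Of all tested miRNAs 11 were called (1.95%), of which 8 were higher (1.42%) and 3 lower. In 43 of the 564 (7.62%) the groups did not overlap, and neither arm of miR-22 was among them. Without IL-1β replicate 4, the log2 fold change of miR-22-3p was 0.07, with a 95% interval of -0.04 to 0.18. The interval passed 0.3 in 3 of the 14 other edgeR fits that gave one, which left out vehicle replicate 2, vehicle replicate 3 or IL-1β replicate 1, and its upper end was at most 0.32.

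**Figure D1:**
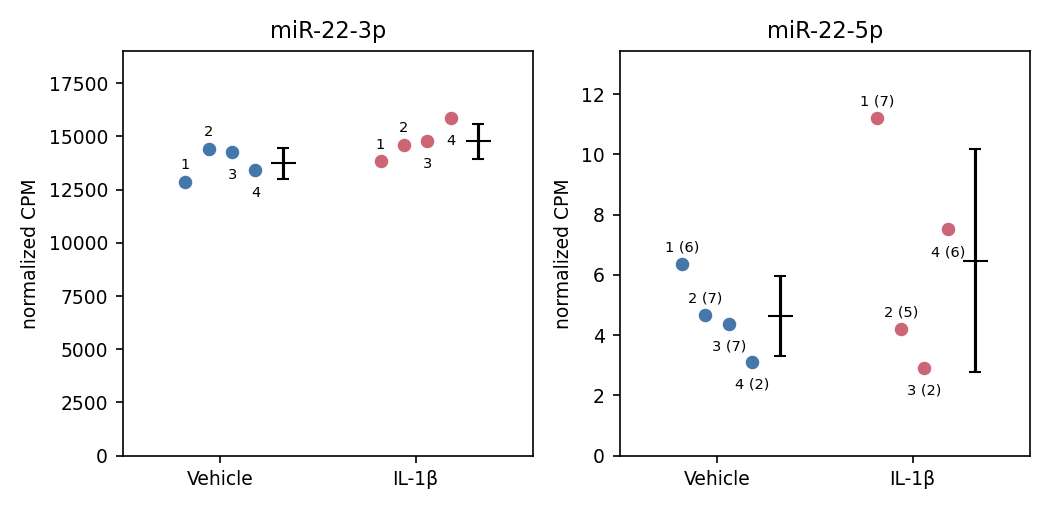
Normalized CPM of miR-22-3p and miR-22-5p in each library, numbered by replicate, with the raw count of miR-22-5p in parentheses and the mean ± SD of 4 libraries as a bar with whiskers. The 3p arm lies between 12869 and 15857 in all 8 libraries and the groups overlap, whereas the 5p arm rests on 2 to 7 counts per library.

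miR-22-5p, the minor arm, was close to the limit of detection. Its counts were 6, 7, 7 and 2 in vehicle replicates 1 to 4 and 7, 5, 2 and 6 in IL-1β replicates 1 to 4. In normalized CPM these were 6.36, 4.67, 4.37 and 3.12 with vehicle and 11.2, 4.21, 2.92 and 7.52 with IL-1β. The lowest and the highest value both belonged to the IL-1β group, and the highest came from the shallowest library. An observed count of 2 has an exact 95% Poisson interval of 0.242 to 7.22 counts and one of 7 an interval of 2.81 to 14.4, and these intervals overlap. They cover counting error only, as reads carried no molecular identifiers that the sources describe.

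The mean of miR-22-5p was 4.63 ± 1.34 normalized CPM for vehicle and 6.46 ± 3.70 for IL-1β (SD, n = 4). Its log2 fold change was 0.38 (SE 0.477, 95% interval -0.61 to 1.36, edgeR adjusted p = 0.807), and it was not called. Added over libraries, 22 counts of 4646371 with vehicle and 20 of 3313205 with IL-1β gave an IL-1β to vehicle ratio of 1.27, with an exact 95% counting interval of 0.660 to 2.45. Both the interval of the fit and this counting interval include no change. The estimate also depended on IL-1β replicate 1, since it was 0.05 without that library.

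**Figure D2:**
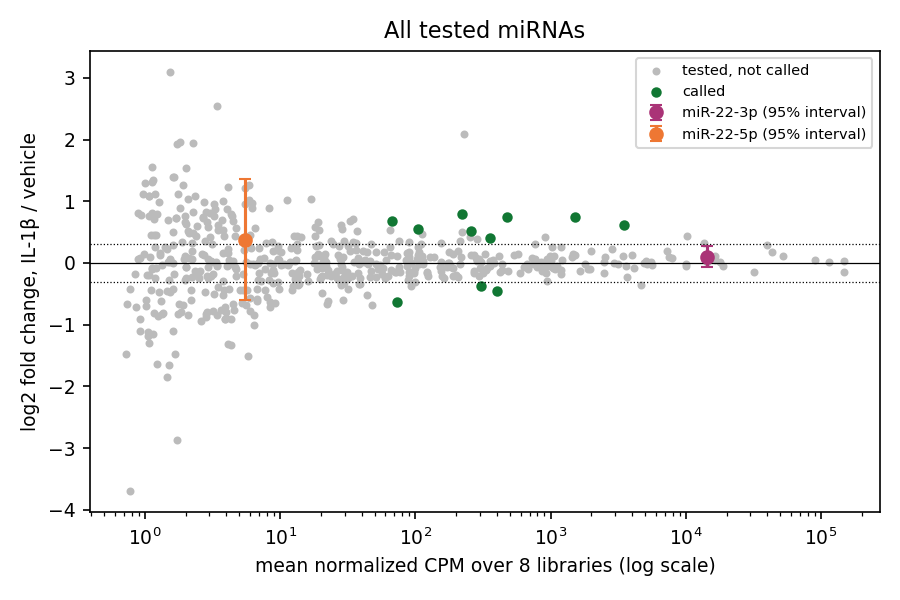
log2 fold change (IL-1β over vehicle) of the 564 tested miRNAs against their mean normalized CPM (log scale), with the 11 called miRNAs in green, dotted lines at ±0.3 and 95% intervals for the arms of miR-22. The interval of miR-22-3p is narrow (-0.06 to 0.27) and that of miR-22-5p is wide (-0.61 to 1.36).

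The 3p arm outnumbered the 5p arm in every library. The ratio of counts, 3p over 5p, was 2023, 3086, 3264 and 4307 in vehicle replicates 1 to 4 and 1236, 3468, 5060 and 2109 in IL-1β replicates 1 to 4. Over all libraries, 113966 counts of the 3p arm and 42 of the 5p arm gave a ratio of 2713, and the 5p arm held 0.0368% of the counts of the hairpin. By library this share ran from 0.0198% (exact Clopper-Pearson 95% interval 0.00239% to 0.0714%) in IL-1β replicate 3 to 0.0809% (0.0325% to 0.166%) in IL-1β replicate 1. These extreme shares belong to the same group and their intervals overlap. Ligation during library preparation favors some ends over others, so the ratio of counts is not a ratio of molecules.

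On the log2 scale, with 0.5 added to each count, the ratio of 3p to 5p was 11.42 ± 0.385 for vehicle and 11.18 ± 0.800 for IL-1β (SD, n = 4). The difference of -0.24 (IL-1β minus vehicle) was smaller than the SD within either group (two-sided exact permutation test over 70 arrangements, p = 0.657, smallest possible 0.0286). In a limma fit across all hairpins with both arms tested, the same difference had an SE of 0.352, a 95% interval of -1.01 to 0.52 and an adjusted p of 0.942. In this fit 0 hairpins were called (0%) and 9 had an unadjusted p under 0.05. The sign of the difference rested on IL-1β replicate 1, without which it was 0.090 (exact permutation test, p = 0.771).

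The imbalance between the arms placed miR-22 near one end of the hairpins. By the mean log2 ratio of 3p to 5p (11.30), miR-22 ranked 2nd of these hairpins, after miR-92b (11.55) and before miR-320 and miR-127 (10.93), and the 3p arm was the major one in 68 of them. miR-140, the hallmark hairpin of cartilage, was 6th at 8.97. The median size of the ratio, in either direction, was 3.51 on the log2 scale, or 11.4-fold. The ratios beside that of miR-22 rested on few counts of the scarcer arm as well, 60 for miR-92b and 21 for miR-320, and their order was not tested. As a ranking over hairpins with both arms tested leaves out those whose minor arm is hardly seen, the order was also read over all 41 hairpins with an arm of at least 1000 normalized CPM. The scarcer arm took a smaller share than in miR-22 in 7 of the 41, and a median of 0.320% of the hairpin. The smallest share was that of miR-199a, with 0 counts of 3p beside 9740 of 5p, and its cause was not tested. By this measure, taken from counts summed over libraries, miR-22 (0.0368%) and miR-92b (0.0403%) changed places. miR-410, which likewise had more 3p than 5p counts, lay beyond both at 0.0332%, with 5 counts of its scarcer arm.

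**Figure D3:**
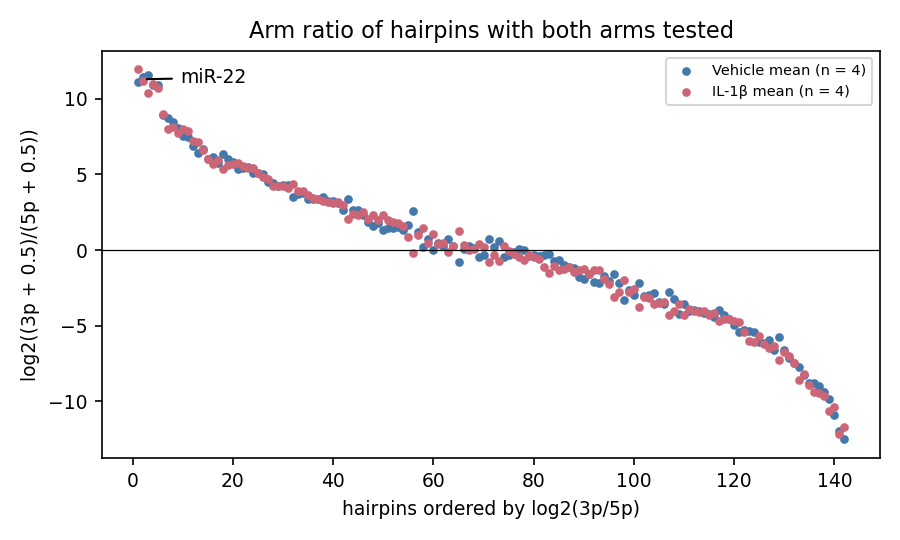
Mean log2 ratio of 3p to 5p counts (0.5 added to each) of every hairpin with both arms tested, in decreasing order, with vehicle and IL-1β means of 4 libraries as points. miR-22 is 2nd, with 11.42 for vehicle and 11.18 for IL-1β.

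miR-22-3p was then placed among the miRNAs of like abundance, and levels are given here as normalized CPM, which for mature miRNAs of 21 to 23 nt needs little correction for length. Directly above it stood miR-151-3p (14922, mean of 8 libraries) and let-7c-5p (14371), a member of the let-7 family of growth-restraining miRNAs, and directly below it miR-1195 (13810) and miR-6244 (13543), against 14259 for miR-22-3p. miR-151-3p exceeded miR-22-3p in 6 of 8 libraries, let-7c-5p and miR-1195 in 4 of 8 and miR-6244 in 2 of 8. The order of these 5 was therefore not fixed by library, and the rank of miR-22-3p lay between 13 and 16 in the single libraries.

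None of the 4 neighbors was called, with log2 fold changes of 0.12 (miR-151-3p), 0.02 (let-7c-5p), 0.05 (miR-1195) and 0.33 (miR-6244) and edgeR adjusted p from 0.196 to 0.992. In the order of abundance miR-22-5p was 361st, between miR-3077-3p and miR-7035-3p above and miR-412-3p and let-7c-1-3p below, all at 5.47 to 5.61 normalized CPM and none called.

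Among the 60 miRNAs with at least 1000 normalized CPM, miR-22-3p was measured with a small spread. Its coefficient of variation over the 8 libraries, treatments included, was 6.38%, the 12th smallest of the 60, whose median was 9.23% and whose range was 3.01% to 34.6%. The SE of its log2 fold change (0.0799) was undercut by 6 of the 60, with a median of 0.0892. Its log2 fold change of 0.10 was close to the median size of change in this class, 0.10 in either direction, and 2 of the 60 were called, both higher.

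**Figure D4:**
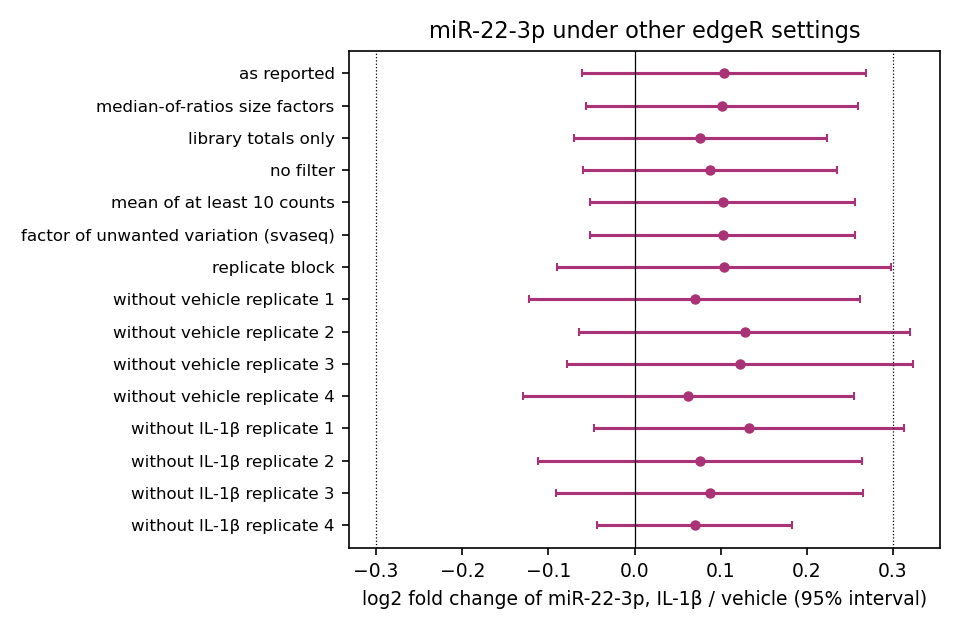
log2 fold change of miR-22-3p (points) with 95% intervals (bars) in the edgeR fit as reported and under 14 other settings, with dotted lines at ±0.3. The estimates lie between 0.06 and 0.13, all intervals include 0, and 3 of them pass 0.3.

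The miRNAs whose abundance over the 8 libraries was most like that of miR-22-3p were sought among 194 others with a mean of at least 50 counts, by the Pearson r of log2(normalized CPM + 1). They were miR-423-5p (r = 0.94, Spearman rho = 0.90), miR-125b-1-3p (r = 0.90, rho = 0.79) and miR-192-5p (r = 0.89, rho = 0.88), while the median r over all 194 was 0.11. These values are descriptions of 8 libraries that share both treatments and the scaling factors of each library.

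miR-423-5p ranged from 6873 to 7528 normalized CPM with vehicle and from 7418 to 8125 with IL-1β, with its lowest value in vehicle replicate 1 and its highest in IL-1β replicate 4, the same libraries as for miR-22-3p. miR-125b-1-3p, an arm of the miR-125 family, followed the same extremes, at 995 in vehicle replicate 1 and 1510 in IL-1β replicate 4. miR-192-5p, best known from liver and kidney, ran from 40.5 in vehicle replicate 4 to 104 in IL-1β replicate 4. None of the 3 was called, with log2 fold changes of 0.09 (edgeR adjusted p = 0.753), 0.25 (adjusted p = 0.196) and 0.54 (adjusted p = 0.115). IL-1β replicate 4, which stood apart from its group, was the highest library for all 4 miRNAs, and its part in the likeness was not tested. For miR-22-5p the same search gave miR-196a-5p (r = 0.82), miR-214-5p (r = 0.80) and let-7j (r = 0.78), but with 2 to 7 counts of miR-22-5p per library these are not read further.

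**Figure D5:**
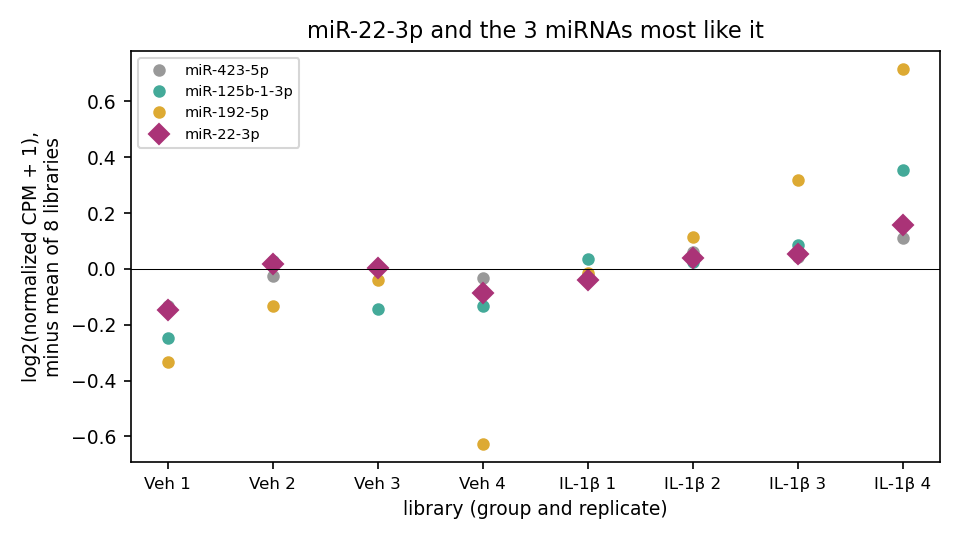
log2(normalized CPM + 1) of miR-22-3p (diamonds) and of miR-423-5p, miR-125b-1-3p and miR-192-5p (circles) in each library, each minus its own mean over the 8 libraries. All 4 are highest in IL-1β replicate 4, and 3 of the 4 are lowest in vehicle replicate 1.

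To set miR-22 beside other miRNAs tied to joint disease, a list was written with earlier results of these data known. It held 43 miRNAs linked to osteoarthritis or cartilage, which were read from the same fit. Of these 38 were tested, and miR-22-3p was the 4th most abundant of them, after miR-140-3p (147414 normalized CPM), miR-181a-5p (90786) and miR-125b-5p (40067), while miR-22-5p was 35th. In all, 2 of the 38 were called (5.26%, against 1.95% of all tested), both higher in the edgeR fit: miR-21a-5p (log2 fold change 0.75, edgeR adjusted p = 3.58e-05), an inflammation-linked miRNA, and miR-222-3p (0.62, adjusted p = 2.46e-05), which targets cell cycle inhibitors. These 2 shares were not matched for abundance. Among all 564, the called miRNA with the fewest counts averaged 64.4 per library. The difference between the shares is therefore not read as a property of the list. The median log2 fold change was -0.02 over the list and 0.01 over all 564.

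In both called miRNAs the groups were fully separated, as they were in all 11 called miRNAs of the fit, whereas those of miR-22-3p overlapped. miR-222-3p was at 2668 to 2824 normalized CPM with vehicle and 3665 to 4562 with IL-1β, and miR-21a-5p at 330 to 387 and 475 to 694. The groups did not overlap in 5 of the 38 (13.2%), compared with 7.62% of all tested, again not matched for abundance.

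The other 3 of these 5 were not called, and 2 of them were called under other settings. miR-146a-5p, a known target of NF-κB, had the largest log2 fold change of the list (2.09, SE 0.562, edgeR adjusted p = 0.184). It was at 79.5, 98.1, 91.8 and 74.8 normalized CPM in vehicle replicates 1 to 4 and at 203, 201, 269 and 821 in IL-1β replicates 1 to 4. All 4 IL-1β libraries were thus above all vehicle libraries, and IL-1β replicate 4 was far above the other 3. Without IL-1β replicate 4, miR-146a-5p was called at a log2 fold change of 1.33 (edgeR adjusted p = 1.02e-08), and DESeq2 called it with all 8 libraries (adjusted p = 0.00188). Over all its alternatives the adjusted p of miR-146a-5p ran from 1.02e-08 to 0.448.

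miR-455-3p, a chondrocyte miRNA, was lower in all 4 IL-1β libraries (3143 to 4779 normalized CPM) than in the vehicle libraries (5053 to 5585), with a log2 fold change of -0.35 (edgeR adjusted p = 0.0691). miR-455-3p was called lower with no filter, with a factor of unwanted variation, with the replicate block and without IL-1β replicate 2, so that the calls of the list were not all higher there. Over its alternatives the adjusted p of miR-455-3p ran from 0.00175 to 0.306. miR-193b-3p (log2 fold change -0.29, edgeR adjusted p = 0.0843) was not called under any alternative, with an adjusted p from 0.0197 to 0.252. The lowest was that without IL-1β replicate 4, where the log2 fold change of -0.29 did not reach the size needed for a call.

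The abundant members of the list that, like miR-22-3p, were not called also included miR-125b-5p (log2 fold change 0.30, SE 0.113, unadjusted p = 0.0166, edgeR adjusted p = 0.232), whose groups overlapped, and miR-140-3p (-0.15, SE 0.0803, edgeR adjusted p = 0.546), a defining chondrocyte miRNA, miR-181a-5p (0.04, adjusted p = 0.886) and miR-26a-5p (-0.02, adjusted p = 0.992).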

How the data were processed

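The authors deposited 1 table of read counts for mature miRNAs in 8 libraries. Per the study's methods and the submitters' processing notes, reads were trimmed with cutadapt, aligned to mm10 with STAR (2.4.2a in the notes, another release in the methods) and counted with featureCounts. The methods, written for the mRNA and miRNA libraries together, name a GENCODE annotation (vM20). The source of the mature miRNA entries, the use of strand and the handling of multiply placed reads were not given in the sources used here. RUVseq was described. The deposited counts are integers whose totals differ, which does not show whether a correction had been applied, and they were taken as raw.

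Groups were taken from the sample titles. The members and lists were chosen with earlier results of these data known. Counts were tested with edgeR 4.0.16 in R 4.3.3 (quasi-likelihood, robust, two-sided, TMM scaling, group only) for miRNAs over 1 CPM in at least 4 of 8 libraries, with Benjamini-Hochberg adjustment over all 564. The SE is the log2 fold change divided by the root of F, and the thresholds were those given with the study's miRNA results. The arm ratio was tested with an exact permutation test and, over all hairpins with both arms tested, with limma 3.58.1. Library pairs differed by more than counting noise (chi-square per degree of freedom at least 3.07). Both fits were tested on simulated counts, in which changes of scarce miRNAs and of hairpins with a scarce arm were often missed.

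Named miRNAs were both arms, their 2 neighbors above and below in abundance, the 3 most like each, the nearest sequences, called members of the osteoarthritis list and miR-140-3p. miR-92b, miR-320, miR-127, miR-199a, miR-210, miR-410, miR-877, miR-181a-5p, miR-125b-5p, miR-26a-5p, miR-146a-5p, miR-455-3p and miR-193b-3p were named after their values were seen. The alternatives were DESeq2 1.42.0, svaseq (sva 3.50.0), other scaling, filters and pseudocounts, a replicate block and each library left out. Sequences are from RefSeq (GRCm38.p6), the fold from RNAfold 2.7.2.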

Additional observations from a re-analysis of the deposited data

How the results depend on the processing

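miR-22-3p was not called under any of its 15 alternatives: its log2 fold change stayed positive, between 0.06 and 0.13, with an adjusted p from 0.557 to 0.867. miR-22-5p was not called under any of its 13 alternatives, with log2 fold changes of 0.05 to 0.56 and an adjusted p from 0.755 to 0.978. A mean of at least 10 counts removed miR-22-5p, and DESeq2 gave it no adjusted p. The arm difference of -0.24 ranged from -0.51 to 0.090 with a library left out (exact permutation p from 0.314 to 0.886), and reversed, to 0.090, without IL-1β replicate 1. The cause was not tested, but that library held 7 of the 20 IL-1β counts of miR-22-5p.

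Of all tested miRNAs, the 11 calls became 18 with a factor of unwanted variation and 19 with the replicate block, and all 11 remained under both. With a library left out the calls ranged from 6 (vehicle replicate 4) to 19 (IL-1β replicate 4). The osteoarthritis list had 2 or 3 calls throughout, the third being miR-146a-5p (higher; DESeq2 and without IL-1β replicate 4) or miR-455-3p (lower; no filter, a factor of unwanted variation, the replicate block and without IL-1β replicate 2). The arm ratio of all hairpins gave 1 call with a pseudocount of 1, 1 at a mean of at least 10 counts in both arms, and 2 with the limma trend on the scarcer arm, an alternative chosen after seeing the data. Leaving out a library gave 0 to 1 calls, the 1 without IL-1β replicate 4. miR-210 was called in each of these, and miR-877 joined it with the limma trend on the scarcer arm.

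No source states that the replicate numbers pair the libraries, and they were not treated as pairs: the deviations of same-numbered libraries from their group means correlated by 0.17, -0.34, 0.10 and -0.18 over 195 miRNAs, over 0.1 in some pairs and negative in others. With the replicate block the log2 fold changes were 0.10 (miR-22-3p, adjusted p = 0.840) and 0.33 (miR-22-5p, adjusted p = 0.907). The arm difference was -0.24 (exact sign-flip test, p = 0.5), but with so few pairs this test cannot give a p under 0.05. The block gave 3 calls on the osteoarthritis list and 0 hairpins called. miR-22-5p rested on 2 to 7 counts per library, with a 95% interval from -0.61 to 1.36, and the part of depth in this was not tested.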
